A study of Rattus norvegicus with 11 samples.

Results

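The cytochrome P450 genes of families 1, 2 and 4 were followed in rat liver after a high dose of mequindox. Their members were all probe sets on the array whose 1 gene symbol in the platform annotation began with Cyp1, Cyp2 or Cyp4 followed by a letter, which left out families with a number of 2 digits such as Cyp17 and Cyp27. This gave 42 probe sets, and a further 4 probe sets that each carried the symbols of 2 such genes are shown as shared. The 46 probe sets stood for 43 genes and were taken from 31099 probe sets in all.

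P450 enzymes are heme proteins of the endoplasmic reticulum that pass electrons from P450 reductase to oxygen and insert an oxygen atom into drugs, steroids or fatty acids. Families 1 and 2 do much of the oxidation of foreign compounds in liver, and family 4 hydroxylates fatty acids and eicosanoids at the end of the chain. Many of the genes are inducible, Cyp1a through the aryl hydrocarbon receptor (AhR), Cyp2b through the nuclear receptor CAR and Cyp4a through PPAR alpha, and several Cyp2c and Cyp2a genes of the rat are controlled by the pattern of growth hormone secretion.

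Liver RNA came from 8 Wistar rats labelled as high-dosed with mequindox, an antibacterial of the quinoxaline class given to livestock, and from 3 control Wistar rats, with 1 Affymetrix array per animal. The high-dosed animals carried the numbers 2, 3, 4, 5, 6, 8, 10 and 11 and the controls the numbers 1, 2 and 9. All were labelled as 9 weeks old except high-dosed animal 8, labelled as 10 weeks old, and the dose in units of mass, the length of treatment and the sex are not stated in the labels. The design text states that both groups were picked for arrays from metabolite profiles of liver extracts and from clinical chemistry.

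Values are the deposited intensities on a linear scale, and a change is a difference of log2(intensity + 55.26), high-dosed minus control, which understates the change of dim probe sets. Median intensities per array lay between 149 and 187 in high-dosed animals and between 162 and 176 in controls. Levels of different probe sets are not set against each other, since probes differ in brightness. Of 10 hepatocyte markers listed, 9 had a probe set and all 9 passed the filter on low signal, of which Apoa1 was called higher and Asgr1 lower, with a summed intensity of 186963 to 192955 in high-dosed animals and 186946 to 190806 in controls. In whole liver, a change in the share of a cell type and a change in RNA per cell cannot be told apart. Some markers of other cells differed between the groups. Of 7 measured endothelial markers 3 were called higher in high-dosed animals (Pecam1, Stab2 and Emcn), against 4.63% of all probe sets tested. Of the 7, 6 had a change above 0, while Lyve1 was at -0.12, with 7 of 8 high-dosed animals below every control. The summed intensity of the 7 ran from 11445 to 12582 in high-dosed animals, against 10026 to 11159 in controls, with no overlap. The 3 called endothelial markers were 2 after quantile normalization. Among 4 measured cholangiocyte markers Epcam was called higher, with Krt7 and Krt19 under the filter in both groups, and the sums ran from 1023 to 1708 in high-dosed animals and from 684 to 839.6 in controls. All these sums weigh the brightest probe sets most. Epcam alone had 665 to 1265 in high-dosed animals and 410 to 512 in controls, so the cholangiocyte sum largely repeats its call. By limma, 0 of 9 macrophage, 0 of 6 stellate cell and 0 of 3 lymphocyte markers tested were called. Macrophage markers nonetheless lay above 0 in 8 of 9, with a median change of 0.26 and sums of 26075 to 35299.5 in high-dosed animals and 20171 to 27693 in controls. Stellate sums ran from 9590.3 to 11850.2 in high-dosed animals and from 9776 to 10378 in controls, and lymphocyte sums from 922 to 1380.2 in high-dosed animals and from 962 to 1143 in controls, Cd3e and Cd8a being under the filter. The part of these cells in the P450 values was not tested.

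Few P450 probe sets were called between the groups, at a share near that of the array as a whole. The shared probe set of Cyp2b1 and Cyp2b2 was about 2-fold higher in high-dosed animals, and Cyp2c22 and Cyp4f1 were modestly lower. Of the 46 probe sets 38 passed the filter on low signal, and 3 of these, 7.89%, were called at a limma adjusted p below 0.05, 1 of them higher and 2 lower. The background was 6.92% of all 18625 probe sets tested (4.63% higher and 2.29% lower, 862 against 426, or 786 against 232 after median centring), so the share of called P450 probe sets lay near that of the array as a whole. Among the 34 probe sets of a single gene 0 were called higher and 2 lower by limma, and 10 had an unadjusted p below 0.05, against 11 of all 38 and 21.9% of all probe sets tested. The median change of the 38 was -0.017, beside -0.0091 over all probe sets tested, and the median size of change was 0.098 beside 0.12. By family, 0 of 2 tested probe sets were called in Cyp1, 2 of 25 in Cyp2 and 1 of 11 in Cyp4. High-dosed animals and controls were fully separate for only 2 of the 38, against a background of 9.85%. These were Cyp2c6v1, with all high-dosed animals above the controls (background 6.53%), and Cyp4f1, with all below (background 3.32%).

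**Figure D1:**
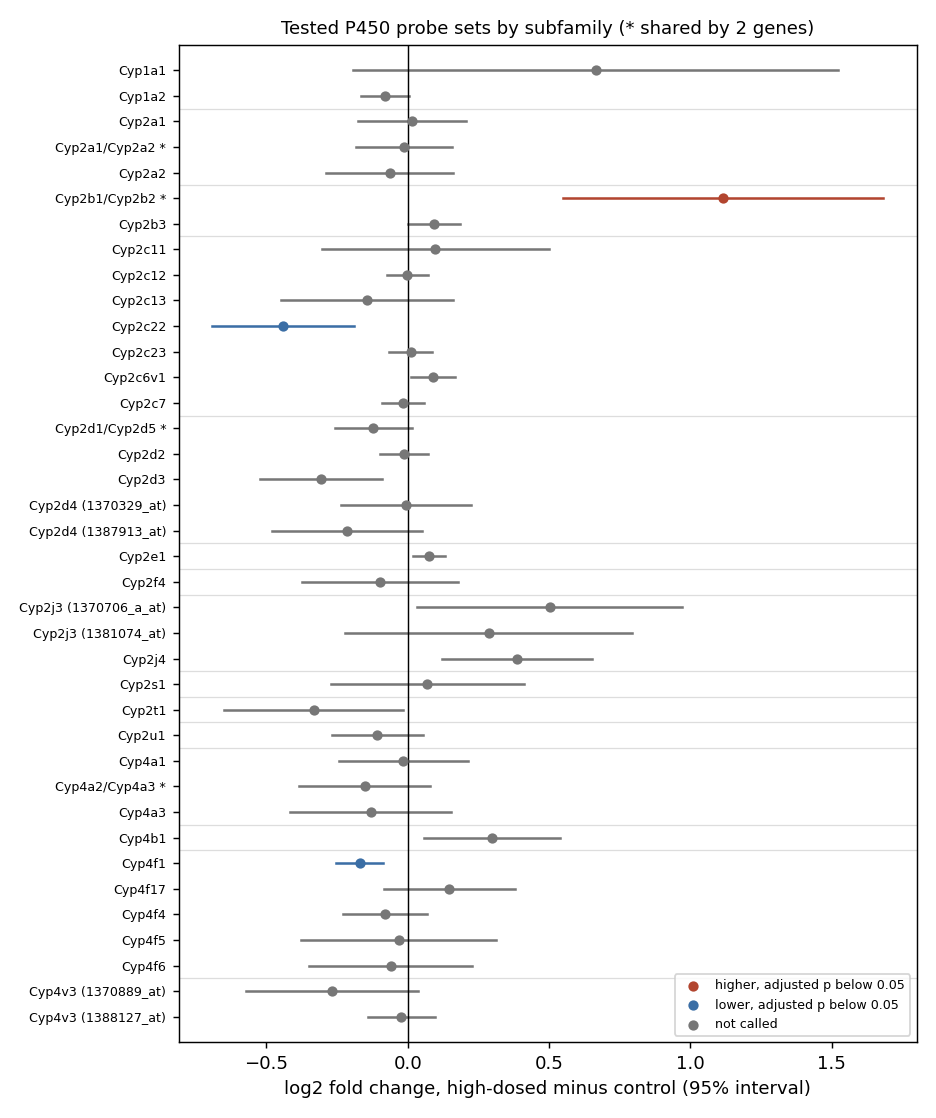
Log2 fold change, high-dosed minus control, of the 38 tested P450 probe sets (points) with the 95% interval of the limma fit (lines), ordered by subfamily, with probe sets shared by 2 genes marked by an asterisk. The Cyp2b1/Cyp2b2 probe set has the largest change, at 1.12, with an interval (0.55 to 1.68) that overlaps that of Cyp1a1 (-0.19 to 1.52). Cyp2c22 and Cyp4f1 lie below 0 at -0.44 and -0.17, and the other 35 were not called.

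The 8 probe sets that did not pass the filter were those of Cyp1b1, Cyp2a3, Cyp2b12, Cyp2b21, Cyp2g1 and Cyp2j10 and both of Cyp4a8. In all 8 the mean signal of both groups lay under the filter value of 7.40 on the log2 scale, so none was lost for being dim in 1 group only. Cyp2j10 lay closest to the filter, at 94.9 to 151 in high-dosed animals and 98.3 to 124 in controls. Cyp1b1, an estradiol hydroxylase found mostly outside the liver, lay at 48.2 to 70.8 in high-dosed animals and 61.2 to 74.5 in controls, with 7 of 8 high-dosed animals below every control. Cyp2g1, known from the olfactory mucosa, lay at 37.4 to 53 in high-dosed animals and 40.2 to 51.6 in controls. Cyp2a3, a nasal and lung form, lay at 39.3 to 59 in high-dosed animals and 41.8 to 51.3 in controls. Cyp2b12, known from sebaceous glands, lay at 24.7 to 41.2 in high-dosed animals and 36.5 to 39.5 in controls, and Cyp2b21 at 36.8 to 62.4 in high-dosed animals and 45.4 to 63.6 in controls. The 2 probe sets of Cyp4a8, a Cyp4a gene known from kidney, lay at 52.9 to 79.3 and 47.8 to 69.2 in high-dosed animals and 57.9 to 64.7 and 51.3 to 66.8 in controls. The ranges of high-dosed animals and controls overlapped in all 8. By limma without a filter 0 of the 8 were called (lowest adjusted p = 0.29, for Cyp1b1).

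The Cyp2b subfamily held the largest change of the 38. Cyp2b1 and Cyp2b2 are the classic phenobarbital-inducible P450s of rat liver and oxidise many drugs. They shared 1 probe set (1371076_at), so the genes could not be told apart, and their start regions are nearly the same. They are shown here from 250 bases before to 50 bases after the annotated start, from RefSeq on GRCr8, because the change was read from a probe set of both genes, and the letters show how alike the pair is. Capitals mark the bases that differ in the alignment of the pair.
Cyp2b1, chr1:90645869-90646168, plus strand: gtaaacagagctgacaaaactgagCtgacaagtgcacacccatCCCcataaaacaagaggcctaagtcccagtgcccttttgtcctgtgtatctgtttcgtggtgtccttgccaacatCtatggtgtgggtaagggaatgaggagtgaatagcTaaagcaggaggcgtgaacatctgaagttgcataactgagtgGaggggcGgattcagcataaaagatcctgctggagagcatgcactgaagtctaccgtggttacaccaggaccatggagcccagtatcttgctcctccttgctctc
Cyp2b2, chr1:90722031-90722330, plus strand: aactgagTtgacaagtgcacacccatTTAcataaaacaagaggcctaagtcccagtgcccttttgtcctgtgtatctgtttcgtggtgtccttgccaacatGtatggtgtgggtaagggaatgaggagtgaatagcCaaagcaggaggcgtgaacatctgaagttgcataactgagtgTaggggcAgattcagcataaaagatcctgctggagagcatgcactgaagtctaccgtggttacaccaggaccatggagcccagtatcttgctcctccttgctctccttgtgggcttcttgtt
Of 283 aligned bases 275 were identical (97.2%), the 8 others differed, and the alignment had 0 inner gaps. The core letters of the AhR site, GCGTG, searched on both strands, stood in both windows on the plus strand, 86 bases before the start in Cyp2b1 and 103 in Cyp2b2, as they did in 31.1% of 27457 promoter windows of the same length and in 8 of the 36 windows found for the member genes. The letters TTATGTAA, the form bound by the clock output factors of the PAR bZIP family, stood on the minus strand of the Cyp2b2 window, where they take in the first 3 capitals after the opening one (TTA), and not in that of Cyp2b1, against 0.881% of all windows. AGGTCA, a hexamer read by many nuclear receptors, stood in neither, against 15.7%. Of the 36 member windows 2 held TTATGTAA and 11 held AGGTCA. No pair of these motifs overlapped in either window. These matches describe letters only.

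The Cyp2b1/Cyp2b2 probe set had a lowest, median and highest intensity of 6662, 7601 and 8011 in the 8 high-dosed animals. Controls 1, 2 and 9 had 7304, 2539.7 and 2058. The high-dosed animals thus lay close together (coefficient of variation 7.68%), controls 2 and 9 lay far below them, and control 1 lay within their range. The mean log2 signal was 12.86 ± 0.11 (SD, n = 8) in high-dosed animals and 11.74 ± 0.97 (SD, n = 3) in controls. The limma fit gives both groups 1 spread although the 3 controls varied more. Its SE and interval therefore understate the uncertainty of the change, and its p-value is likely too small. The change of 1.12 ± 0.26 (SE), 2.17-fold, was called (limma adjusted p = 0.0247, 95% interval 0.55 to 1.68), with 8 of 8 high-dosed animals above the control mean and 5 above every control.

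How large this change was depended on the controls. Without control 1 it was 1.67 (limma adjusted p = 3.23e-06), and the call was lost without control 2, at 0.914 (limma adjusted p = 0.113), or without control 9, at 0.766 (limma adjusted p = 0.11). It was also lost without high-dosed animals 8, 10 and 11, at 1.15 (limma adjusted p = 0.0648), and within animal numbers 6 and below, at 0.8 (limma adjusted p = 0.177), where control 1 was 1 of 2 controls. Within numbers 8 and above, with control 9 as the 1 control, it was 1.76, and its limma adjusted p of 0.0358 takes that lone control to vary as little as the high-dosed animals, although the log2 SD was 0.11 in the 8 high-dosed animals and 0.97 in the 3 controls.

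Nr1i3, which encodes CAR, had the same layout of animals. It had a lowest, median and highest intensity of 574, 761 and 1195 in high-dosed animals. In controls 1, 2 and 9 it had 625, 216 and 275. Its log2 SD was 0.33 in high-dosed animals and 0.70 in controls, and the fit again gave both groups 1 spread. Control 1 again lay within the range of the high-dosed animals and the other controls below it, and the change of 1.08 ± 0.25 was called (limma adjusted p = 0.0235). Without control 1 it was 1.47 (limma adjusted p = 0.00715). The call was lost without control 2, at 0.811 (limma adjusted p = 0.114), without control 9, at 0.953 (limma adjusted p = 0.0922), and within each range of animal numbers. Of 18 tested receptors and factors that drive P450 genes it was the only one called, against 6.92% of all probe sets tested. Of the 18, 3 had an unadjusted limma p below 0.05, against 21.9% of all probe sets tested. Besides Nr1i3 these were the growth hormone receptor Ghr (-0.14, limma adjusted p = 0.0619) and Cebpa (0.20, limma adjusted p = 0.105). For Ghr 7 of 8 high-dosed animals lay below every control, and for Cebpa 7 of 8 lay above. Ahr (0.0094), Nr1i2, encoding PXR (0.094), Rxra (-0.011) and Hnf4a (-0.044) were not called either, and the probe set of Ppara lay under the filter.

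Of 8 tested targets of CAR and PXR other than P450s, all 8 had a change above 0, against 47.9% of all probe sets tested, and 4 were called higher, against 4.63%. Those called were Abcc2, Abcc3, Aldh1a1 and Ugt2b1, and the median of the 8 was 0.37 beside -0.0091 over all probe sets. This list, like the others read beside the P450 genes, was written with earlier results of these data known. Such shares therefore describe the lists only. Control 1 lay within the high-dosed range with both other controls below it in 3 of the 8, Abcc3, Aldh1a1 and Ces2c. Abcc3, an exporter of conjugates into blood, had 672, 894 and 1017 in high-dosed animals as lowest, median and highest intensity. Controls 1, 2 and 9 had 807, 213 and 233, with control 1 at the level of the high-dosed animals. Aldh1a1, which oxidises retinal, had 5615, 6704 and 7792 in high-dosed animals, against 5904, 3121 and 3292 in the controls, with control 1 inside the range of the high-dosed animals. The log2 SD in high-dosed animals and controls was 0.20 and 0.94 for Abcc3 and 0.16 and 0.50 for Aldh1a1. For both genes the fit gave the groups 1 spread. Ugt2b1, a glucuronosyltransferase, had 8599, 9936 and 11722 in high-dosed animals and 7945, 6702 and 7838 in controls, and Abcc2 had 6409.6, 7546 and 8496 in high-dosed animals and 5319.8, 5421 and 5359.9 in controls. In these last 2 genes all 3 controls, control 1 included, lay below every high-dosed animal. All 8 were also above 0, and the same number called, after quantile normalization and after median centring. Of the 4 called, Abcc2 alone kept its call without control 2 or without control 9.

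**Figure D2:**
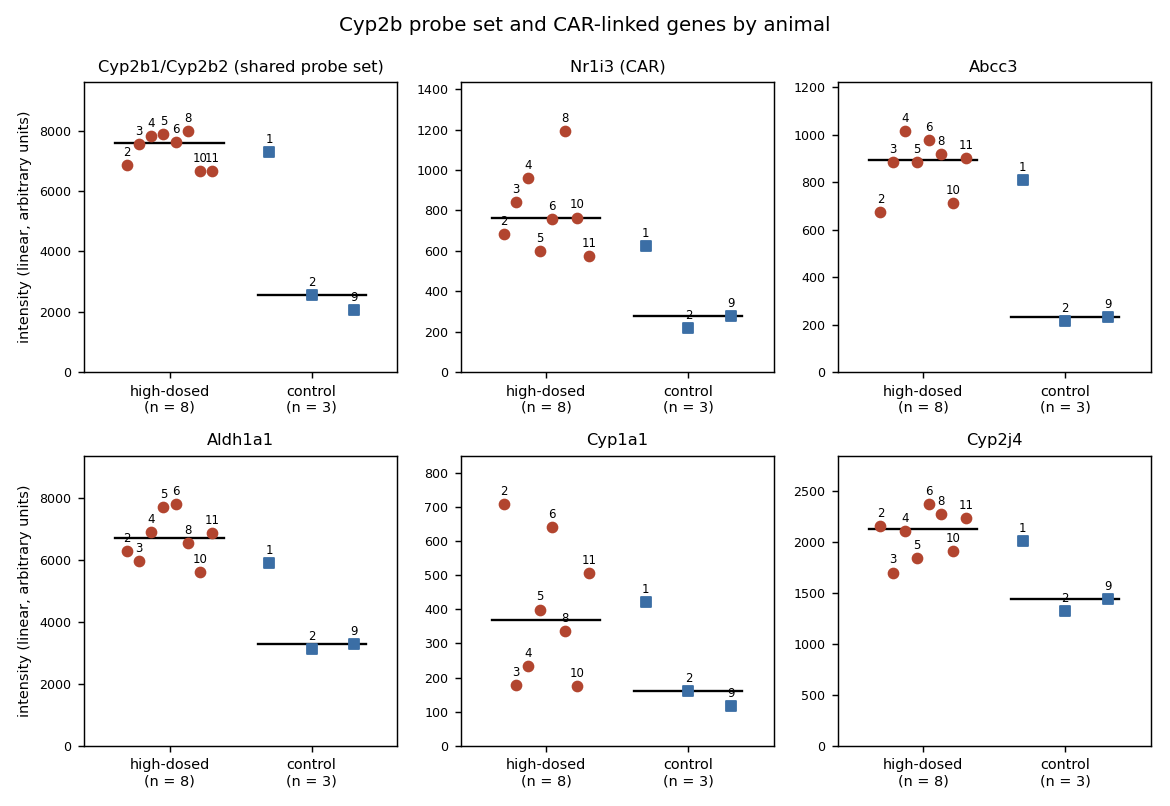
Intensity on a linear scale of 6 probe sets in each animal, with high-dosed animals as circles (n = 8), controls as squares (n = 3), the animal number above each point and the group median as a line. In all 6 panels control 1 lies within the range of the high-dosed animals and controls 2 and 9 lie below it, as for Cyp2b1/Cyp2b2, with 7304 in control 1 against 2539.7 and 2058 in the other controls.

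Over the 38 tested P450 probe sets, control 1 lay within the high-dosed range while both other controls lay outside it on the same side for 3 (Cyp2b1/Cyp2b2, Cyp1a1 and Cyp2j4, 7.89%), against 2.60% of all probe sets tested. The same held for control 2 in 3 (Cyp2c22, Cyp2d3 and the 1370889_at probe set of Cyp4v3, 7.89% against 5.90%) and for control 9 in 1 (Cyp2b3, 2.63% against 8.09%). Cyp2b3, a Cyp2b gene with its own probe set that is not induced by phenobarbital in rat liver, had 16691, 17138 and 17996 in high-dosed animals and 15432, 15305 and 17801 in controls 1, 2 and 9. Its change of 0.092 ± 0.042 was not called (limma adjusted p = 0.227), but was without control 9, at 0.163 (limma adjusted p = 0.0194).

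In the Cyp1a subfamily, whose genes are the most studied targets of the AhR, neither gene was called. Cyp1a1, which oxidises polycyclic aromatic compounds, had a lowest, median and highest intensity of 174, 368 and 708 in high-dosed animals and 421, 159.8 and 115 in controls 1, 2 and 9. High-dosed animals 2, 6 and 11 lay above every control, at 708, 642 and 507, and the other 5 lay among the controls. This coefficient of variation of 51.8% was the largest of the 46 probe sets in high-dosed animals, and the interval of its change ran from -0.19 to 1.52 (limma adjusted p = 0.364). Cyp1a2, the main hepatic P450 of that subfamily, which oxidises caffeine, had 14888, 15195 and 16584 in high-dosed animals against 17011, 16175 and 15912 in controls. For Cyp1a2, 6 of 8 high-dosed animals lay below every control, and the interval ran from -0.17 to 0.0043 (limma adjusted p = 0.256). Of 4 tested AhR targets other than P450s, Nqo1 was called lower (-0.51) and Nfe2l2 higher (0.29), against 2.29% and 4.63% of all probe sets tested. Both calls were lost without control 1, without control 2 and after median centring.

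In the Cyp2c subfamily 1 of 7 tested probe sets was called, against 6.92% of all probe sets tested. Cyp2c22, which is reported to hydroxylate retinoic acid in rat, had a lowest, median and highest intensity of 8919.6, 10878 and 13062 in high-dosed animals. Controls 1, 2 and 9 had 15396, 12286 and 16102. Of the 8 high-dosed animals 6 lay below every control, while animals 3 and 4 (13062 and 12526) overlapped with control 2. The mean log2 signal was 13.39 ± 0.20 (SD, n = 8) in high-dosed animals and 13.83 ± 0.21 (SD, n = 3) in controls, and the change of -0.44 ± 0.12 (SE), 0.737-fold, passed with a limma adjusted p of 0.0401. That call lay close to the threshold and was lost in 14 of 22 other settings, among them without control 1 (-0.397, limma adjusted p = 0.196) or control 9 (-0.364, limma adjusted p = 0.152). It was kept without control 2 (-0.559, limma adjusted p = 0.0334).

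The other Cyp2c probe sets were not called. Cyp2c6v1, a constitutive hepatic form, had 18814 to 20829 in high-dosed animals and 18140.3 to 18708 in controls, so that the groups did not overlap although the change was small (0.090 ± 0.036, limma adjusted p = 0.162). Cyp2c23, an arachidonic acid epoxygenase, had 16303 to 17674 in high-dosed animals and 15996 to 17807 in controls, with an interval of -0.066 to 0.086.

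Rat Cyp2c11 and Cyp2c13 are known as genes of the male liver and Cyp2c12 as a gene of the female liver, while Cyp2c7 is higher in females. Cyp2c12 had intensities of 17497 to 19303 in high-dosed animals and 17837 to 18507 in controls, and Cyp2c7 had 22358 to 24835 in high-dosed animals and 23572 to 24063 in controls. Cyp2c11 had 179.9 to 347 in high-dosed animals and 216 to 306 in controls, and Cyp2c13 179 to 368 in high-dosed animals and 244 to 319.9 in controls. The groups overlapped in all 4 probe sets, and for Cyp2c13 6 of 8 high-dosed animals lay below every control. The changes lay between -0.15 (Cyp2c13) and 0.098 (Cyp2c11), none was called (limma adjusted p from 0.592 to 0.989), and the intervals were narrow for Cyp2c12 (-0.074 to 0.072) and Cyp2c7 (-0.091 to 0.056) and wide for Cyp2c11 (-0.30 to 0.50).

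**Figure D3:**
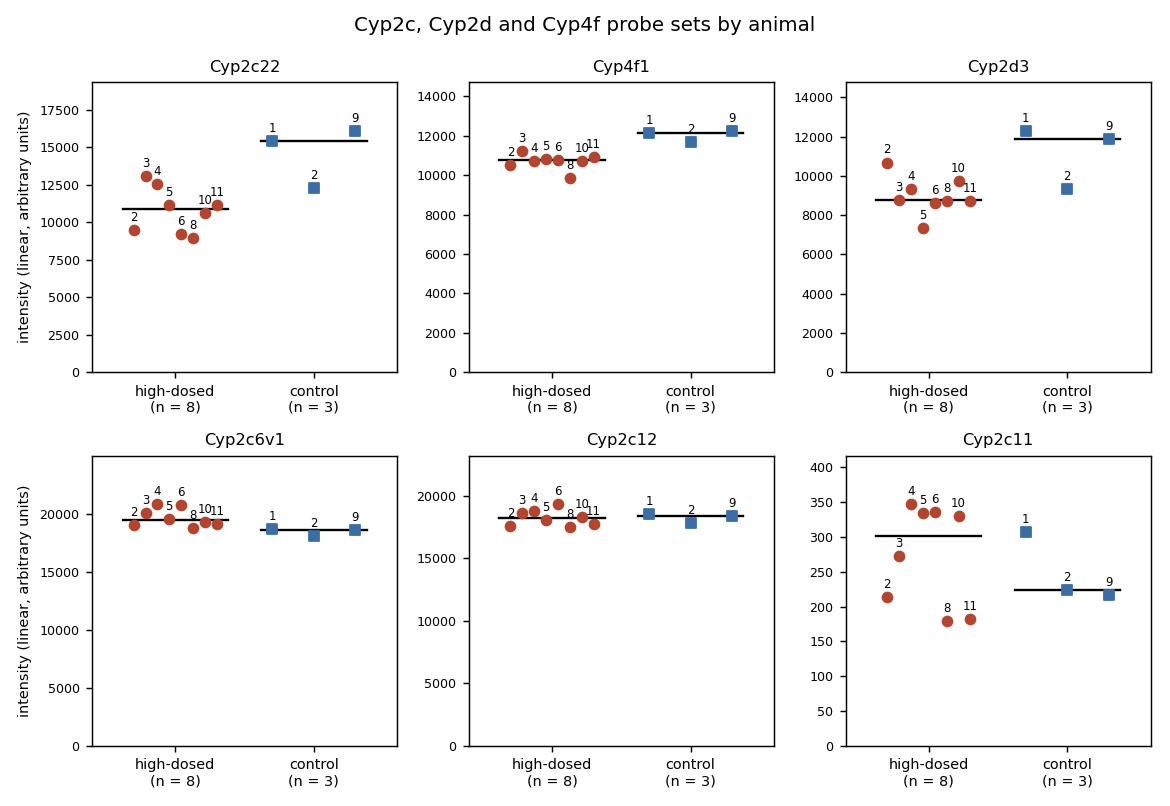
Intensity on a linear scale of 6 P450 probe sets in each animal, with high-dosed animals as circles (n = 8), controls as squares (n = 3), the animal number above each point and the group median as a line. Cyp4f1 is lower in all 8 high-dosed animals than in every control, Cyp2c22 and Cyp2d3 overlap through control 2, and Cyp2c12 and Cyp2c11 keep their own level in both groups.

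In the Cyp2d subfamily, which oxidises many basic drugs, all 5 tested probe sets had a change below 0 (3 of 5 after median centring). By limma 0 were called, against 6.92% of all probe sets tested, and 1 had an unadjusted p below 0.05, against 21.9%. That probe set was Cyp2d3, with 7343, 8746 and 10674 in high-dosed animals and 12299.8, 9324 and 11854 in controls 1, 2 and 9. Control 2 lay within the high-dosed range and controls 1 and 9 above it, and the change of -0.31 ± 0.099 had a limma adjusted p of 0.0818. Without control 2 it was called, at -0.431 (limma adjusted p = 0.0366). Cyp2d2, with 15233 to 17112 in high-dosed animals and 15237 to 16819 in controls (-0.013 ± 0.040), was not called. The probe set shared by Cyp2d1 and Cyp2d5 had 10750.4 to 13226 in high-dosed animals and 12028 to 13498 in controls (-0.12 ± 0.063, limma adjusted p = 0.283), with 4 of 8 high-dosed animals below every control. The 2 probe sets of Cyp2d4 gave -0.0074 and -0.21, both with intervals that held 0 (-0.24 to 0.22 and -0.48 to 0.049).

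In the Cyp2a subfamily the groups lay on top of each other. Cyp2a1, a testosterone hydroxylase, had 6917, 7779 and 8323 in high-dosed animals and 9121, 6365 and 7415 in controls, with an interval of -0.18 to 0.21. Cyp2a2, its close copy, had 4514, 5009 and 5630.1 in high-dosed animals and 6376, 4124 and 5439 in controls (-0.29 to 0.16), and their shared probe set gave -0.013 ± 0.079. For all 3 probe sets every high-dosed animal lay between control 2, the lowest, and control 1, the highest.

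Cyp2e1, which oxidises ethanol and small solvents, had 23599, 24980.5 and 25465 in high-dosed animals and 23804, 23807 and 23200.0 in controls 1, 2 and 9. Of the high-dosed animals 7 lay above every control and animal 11 below controls 1 and 2, and the change of 0.074 ± 0.026 was not called (limma adjusted p = 0.113, interval 0.017 to 0.13). Cyp2e1 was 1 of 9 P450 probe sets above the 99th percentile of intensity on all 11 arrays, with Cyp1a2, Cyp2b3, Cyp2c6v1, Cyp2c7, Cyp2c12, Cyp2c23, Cyp2d2 and Cyp2d1/Cyp2d5. Changes of these 9 had sizes of 0.0011 to 0.12, and the part of signal saturation in that was not tested.

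The Cyp2j genes, which make epoxides of arachidonic acid, had changes above 0 in all 3 tested probe sets, against 47.9% of all probe sets tested. By limma 0 of 3 were called, against 6.92%, and 2 had an unadjusted p below 0.05, against 21.9%. Cyp2j4 had 1701, 2132 and 2369 in high-dosed animals and 2013, 1322 and 1438 in controls 1, 2 and 9. Every high-dosed animal lay above controls 2 and 9, and control 1 lay among them. The change of 0.39 ± 0.12 had a limma adjusted p of 0.0766, and it was called without control 1, at 0.563 (limma adjusted p = 0.0282). The 2 probe sets of Cyp2j3 (1370706_a_at and 1381074_at) gave 0.50 ± 0.22 and 0.29 ± 0.24. In the first, 7 of 8 high-dosed animals lay above every control, up to 4793 in animal 6, and animal 8 lay among the controls at 2081. Controls 1, 2 and 9 had 2991, 1599.9 and 2912 there. Without control 2 the changes of the 2 probe sets were 0.216 and 0.00819, and within numbers 8 and above 0.0164 and -0.479, neither called.

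The remaining single genes of family 2 were not called. Cyp2t1 had 1331 to 2245 in high-dosed animals and 1793 to 2737 in controls (-0.33 ± 0.15, limma adjusted p = 0.204), with 5 of 8 high-dosed animals below every control. Cyp2f4, the rat form of an enzyme that oxidises naphthalene, had 1713 to 2607 in high-dosed animals and 2029 to 2492 in controls (-0.099 ± 0.13). The Cyp2a, Cyp2b, Cyp2f, Cyp2g, Cyp2s and Cyp2t genes form 1 cluster of 12 in the gene table (neighbours within 1 Mb). In it the Cyp2b1/Cyp2b2 probe set was the 1 called of 8 tested, against 6.92% of all probe sets tested. Cyp2s1 (0.070 ± 0.16) and the fatty acid hydroxylase Cyp2u1 (-0.11 ± 0.074) were dim in both groups, with highest intensities of 202 and 183 in high-dosed animals and 173 and 195 in controls.

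In the Cyp4a subfamily, the fatty acid hydroxylases driven by PPAR alpha, 0 of 3 tested probe sets were called by limma, against 6.92% of all probe sets tested. An unadjusted p below 0.05 was found for 0 of the 3, against 21.9%. Cyp4a1 had 6149, 7297 and 8853 in high-dosed animals and 8751, 6742 and 6680.5 in controls 1, 2 and 9, with an interval of -0.24 to 0.21. Cyp4a3 had 4470.3, 6013 and 6969.6 in high-dosed animals and 7378, 6062 and 5386 in controls, with an interval of -0.42 to 0.15. The probe set shared by Cyp4a2 and Cyp4a3 gave -0.15 ± 0.11, with high-dosed animals at 5477 to 7836 and controls at 6312 to 8009. Control 1 was the highest control in all 3, and the groups overlapped in each. Of 12 tested PPAR alpha targets other than P450s 2 were called higher and 1 lower, against 4.63% and 2.29% of all probe sets tested, with a median of -0.065. Those higher were Cpt1a, which admits fatty acids to mitochondria (0.81), and the pantetheinase Vnn1 (1.42), and the lower one was the pyruvate dehydrogenase kinase Pdk4 (-0.68). Angptl4 (-0.44, limma adjusted p = 0.159), with 6 of 8 high-dosed animals below every control, was not called. Cpt1a lost its call without any 1 of the controls (limma adjusted p from 0.1 to 0.136) and in 12 of 22 other settings in all. Vnn1 lost it without control 2 (limma adjusted p = 0.0538) or control 9 (limma adjusted p = 0.072), and Pdk4 kept it without each control.

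In the Cyp4f subfamily, which hydroxylates leukotrienes and other eicosanoids, 1 of 5 tested probe sets was called, against 6.92% of all probe sets tested. Cyp4f1, a leukotriene B4 hydroxylase of rat liver, had a lowest, median and highest intensity of 9867, 10749 and 11208 in high-dosed animals. Controls 1, 2 and 9 had 12165, 11695 and 12266. All 8 high-dosed animals lay below all controls, with little spread in either group. The mean log2 signal was 13.39 ± 0.053 (SD, n = 8) in high-dosed animals and 13.56 ± 0.037 (SD, n = 3) in controls, and the change of -0.17 ± 0.038 (SE), 0.889-fold, had a limma adjusted p of 0.0199. The call was lost in 6 of 22 other settings, without control 1 (-0.163, limma adjusted p = 0.107) or control 9 (-0.157, limma adjusted p = 0.072), after median centring, without a variance trend and within each range of animal numbers. The other Cyp4f genes were not called and overlapped between groups. Cyp4f4 had 3745 to 4603 in high-dosed animals and 4142 to 4799 in controls (-0.080 ± 0.068), and Cyp4f6 1768 to 2951 in high-dosed animals and 2009 to 2883 in controls (-0.060 ± 0.13). Cyp4f5 had 116 to 241 in high-dosed animals and 157 to 208 in controls (-0.031 ± 0.16), and Cyp4f17 159 to 234 in high-dosed animals and 127 to 199.9 in controls (0.15 ± 0.11). The 5 Cyp4f genes lie in 1 cluster in the gene table, of which Cyp4f1 was the 1 gene called.

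Cyp4b1, known mainly from lung, had 844, 1096 and 1279 in high-dosed animals and 894, 775 and 959 in controls 1, 2 and 9. Of 8 high-dosed animals 7 lay above every control, but the change of 0.30 ± 0.11 was not called (limma adjusted p = 0.135). Cyp4v3, a fatty acid hydroxylase, had 2 probe sets. The 1370889_at probe set had 309, 464 and 563 in high-dosed animals and 596, 439.8 and 641 in controls 1, 2 and 9 (-0.27 ± 0.14, limma adjusted p = 0.298). The 1388127_at probe set had 5518, 6079.8 and 6552 in high-dosed animals and 6659, 6067 and 5932 in controls (-0.023 ± 0.055), and neither was called.

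**Figure D4:**
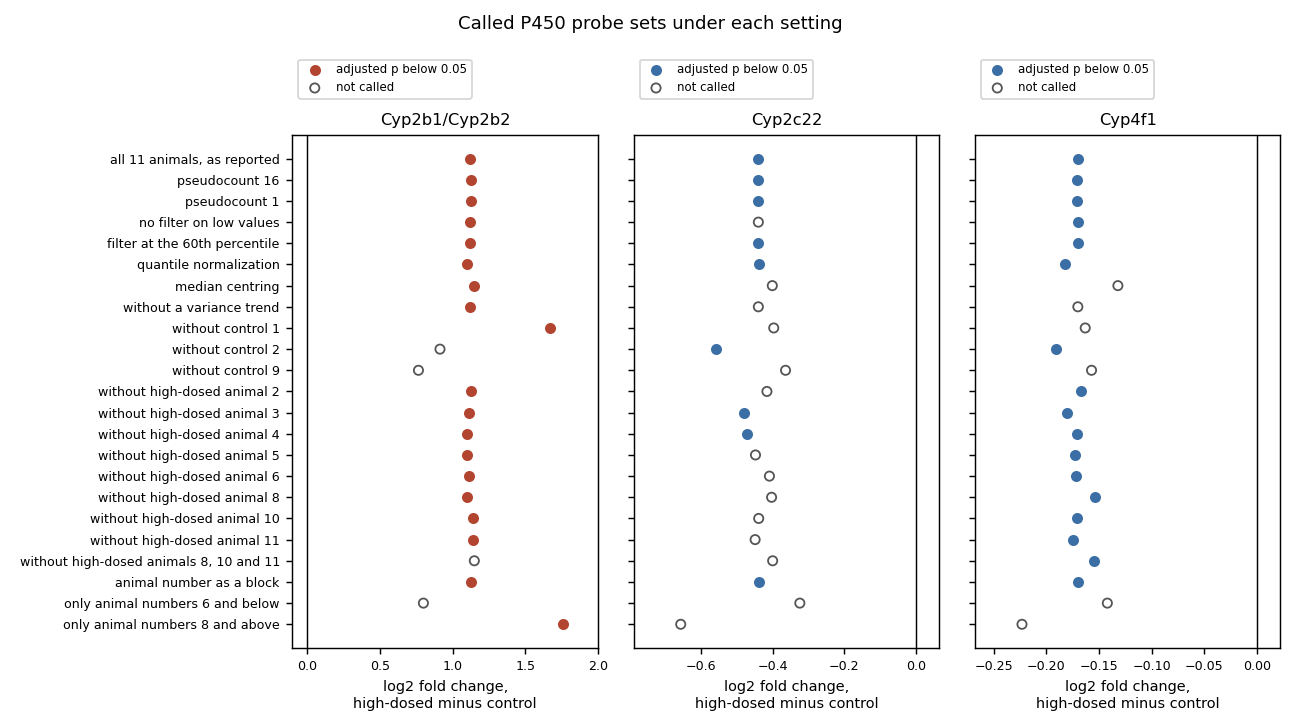
Log2 fold change, high-dosed minus control, of the 3 called P450 probe sets with all animals and under each of 22 other settings, filled where the limma adjusted p was below 0.05 and open where it was not. The Cyp2b1/Cyp2b2 value moves between 0.766 and 1.76 with the choice of controls and animals, Cyp2c22 is called in 8 of the 22 settings and Cyp4f1 in 16, and all values of each probe set keep their sign.

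Of 10 tested genes of electron transfer and heme supply 1 was called higher and 0 lower by limma, against 4.63% and 2.29% of all probe sets tested. Of the 10, 5 had an unadjusted limma p below 0.05, against 21.9% of all probe sets. The median size of change was 0.20 beside 0.12 over all. The gene called was Fech, which inserts iron into protoporphyrin to make heme (0.26 ± 0.073, limma adjusted p = 0.0467). The other 4 below the unadjusted threshold were not called. Hmox1, the inducible heme oxygenase that breaks heme down, had 2504, 3416 and 3676 in high-dosed animals and 2317, 2676 and 2519.5 in controls 1, 2 and 9 (0.36 ± 0.11, limma adjusted p = 0.0703), with 7 of 8 high-dosed animals above every control. Cyb5r3, a cytochrome b5 reductase, had 6194, 6643 and 7816 in high-dosed animals and 9864, 8459 and 7199 in controls (-0.30 ± 0.093, limma adjusted p = 0.0703), with 6 of 8 below every control. Cyb5b, a cytochrome b5 of mitochondria, was at -0.22 ± 0.086 and the heme-binding membrane protein Pgrmc2 at -0.15 ± 0.064. P450 reductase Por had 1520.2, 2149 and 2879 in high-dosed animals and 1817, 1459 and 1869 in controls 1, 2 and 9, and its change of 0.31 ± 0.17 was not called. Alas1, the first enzyme of heme synthesis, was at 0.18 ± 0.13. Fech lost its call without any 1 of the controls and in 16 of 22 other settings in all.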

How the data were processed

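The files held 1 intensity per Affymetrix probe set and array on a linear scale, as deposited by the authors. The submitters' processing notes name MAS5, with no version or role. Scaling was not given in the sources used here, and values were used as deposited. Total RNA was extracted with Trizol, per the labels' protocols.

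Intensities were transformed as log2(intensity + 55.26), the 20th percentile of all values. After removal of 57 array control probe sets, the 18625 probe sets whose mean log2 signal reached its 40th percentile (7.40) were tested. High-dosed and control animals were compared with limma 3.58.1 (R 4.3.3), using a variance trend and two-sided p-values adjusted by Benjamini-Hochberg over the whole tested array. The fit was tested on simulated data. Replicates were separate animals, and 3 controls limit the precision of every value.

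Symbols came from the platform annotation, and all 43 genes matched the RefSeq gene table of GRCr8 by Entrez identifier, with 0 symbols changed. Promoter windows were found for 36. Named members were all 46 probe sets. A companion gene was read from its brightest probe set of 1 symbol. Cyp2c6, Cyp2c24, Cyp2r1, Cyp4f18 and Cyp4x1 had no probe set under that symbol in the annotation used here. Members and companion lists were chosen with earlier results of these data known. Alternatives were another pseudocount (16 or 1), no filter or one at the 60th percentile, quantile normalization, median centring, no variance trend, leaving out each animal or high-dosed animals 8, 10 and 11, and numbers 6 and below against 8 and above, as a block or fitted apart.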

Additional observations from a re-analysis of the deposited data

Results flagged for a closer look

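Among 51 probe sets examined in the 8 high-dosed animals 2 had 1 animal far from the rest by Dixon's ratio of gap to range (above 0.526), a rule that flags about 1 group in 20 by chance. Cyp2e1 stood at 23599 in high-dosed animal 11, the lowest of its group, with the nearest other animal at 24675. The 1370889_at probe set of Cyp4v3 stood at 309 in high-dosed animal 6, with the nearest at 427. The other Cyp4v3 probe set was also lowest in animal 6, at 5518, with the group's median at 6079.8.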

How the results depend on the processing

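No paired analysis was run, since the labels name no pairs of animals and the groups shared only 1 animal number. The 3 called probe sets kept their direction in all 22 settings. Over single animals left out, 0 to 2 P450 probe sets were called higher, 0 to 3 lower and 321 to 1688 probe sets in all. The number called higher was 2 without control 1 and 0 without control 2, and the number called lower was 0 without control 1 or control 9, 3 without control 2, and 1 without any 1 of high-dosed animals 5, 6, 8, 10 and 11. It was 1 with no filter (more probe sets tested), 0 after median centring, 0 without a variance trend, and 0 within numbers 6 and below or 8 and above. Without high-dosed animals 8, 10 and 11 the numbers were 0 higher and 1 lower. Of all probe sets, 321 were called without control 1, 729 without control 2, 851 without high-dosed animals 8, 10 and 11, 1955 with the animal number as a block, 753 within numbers 6 and below and 12 within 8 and above (fewer animals, and a lone control that lends no spread of its own). Other causes were not tested. Of the 38 tested P450 probe sets 19 kept their sign in every setting and 19, none of them called, did not. After quantile normalization the values on the other side of 0 were Cyp4f5 0.0011. After median centring the values on the other side of 0 were Cyp2a1/Cyp2a2 0.0261, Cyp2c12 0.0378, Cyp2c7 0.0214, Cyp2d2 0.0263, Cyp2d4 1370329_at 0.0315, Cyp4a1 0.0227, Cyp4f5 0.00765 and Cyp4v3 1388127_at 0.0159. Without high-dosed animals 8, 10 and 11 the values on the other side of 0 were Cyp2a1/Cyp2a2 0.0221, Cyp2c12 0.0182, Cyp2d2 0.0103, Cyp2d4 1370329_at 0.0911 and Cyp4f5 0.154. With the animal number as a block the values on the other side of 0 were Cyp2c12 0.000279 and Cyp2d4 1370329_at 0.00406. Within numbers 6 and below the values on the other side of 0 were Cyp2a1/Cyp2a2 0.0173, Cyp2a2 0.019, Cyp2c12 0.0234, Cyp2d2 0.0267, Cyp4f4 0.0384 and Cyp4f5 0.0668. Within numbers 8 and above the values on the other side of 0 were Cyp2b3 -0.0714, Cyp2c23 -0.0562, Cyp2d4 1370329_at 0.0329, Cyp2d4 1387913_at 0.0607, Cyp2j3 1381074_at -0.479, Cyp2s1 -0.163, Cyp4a1 0.141, Cyp4a3 0.121, Cyp4f17 -0.156, Cyp4f6 0.117 and Cyp4v3 1388127_at 0.0769. Over single animals left out, values that crossed 0 had these ranges: Cyp2a1/Cyp2a2 -0.117 to 0.0962, Cyp2a2 -0.233 to 0.0778, Cyp2c12 -0.017 to 0.0095, Cyp2d2 -0.0564 to 0.0147, Cyp2d4 1370329_at -0.11 to 0.0894, Cyp2s1 -0.0606 to 0.201, Cyp4a1 -0.0829 to 0.11, Cyp4v3 1388127_at -0.056 to 0.0267, Cyp2a1 -0.108 to 0.15, Cyp2c23 -0.0278 to 0.0493, Cyp4f5 -0.119 to 0.0344 and Cyp4f6 -0.167 to 0.0879.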

Other observations

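Genes that mark the zones of the liver lobule, in which many P450s are known to sit near the central vein, were read beside the P450 genes. Of 9 tested pericentral genes other than P450s 1 was called higher in high-dosed animals, against 4.63% of all probe sets tested. It was Aldh1a1, which also stood in the list of CAR targets. The median change of the 9 was 0.17, 7 lay above 0, against 47.9%, and 5 had an unadjusted limma p below 0.05, against 21.9%. Tbx3 (0.55, limma adjusted p = 0.0549), with all 8 high-dosed animals above every control, and Slc1a2 (0.53, limma adjusted p = 0.0815) were not called. Glul, the glutamine synthetase of the innermost cells, was at 0.21 ± 0.086 and the ornithine aminotransferase Oat at -0.16 ± 0.066, neither called (limma adjusted p = 0.166 and 0.182). Of 10 periportal genes 2 were called higher, the serine dehydratase Sds (2.13) and Hsd17b13, a lipid droplet protein (0.29), which lost its call without control 1 (limma adjusted p = 0.0711). The median of the 10 was 0.030, 8 lay above 0, and 3 had an unadjusted limma p below 0.05. Hal, which degrades histidine, was at -0.56 ± 0.16 and was not called (limma adjusted p = 0.055).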
